A study of Mus musculus with 8 samples.

Results

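Thrombospondins and the matricellular proteins around them are secreted proteins of the extracellular matrix. The 10 genes described here were taken by name from the 46073 genes of the expression table, and they are the thrombospondins Thbs1, Thbs2 and Thbs3, tenascin C (Tnc), periostin (Postn), osteopontin (Spp1), Sparc, fibronectin (Fn1), fibulin 2 (Fbln2) and Ccn4. That choice names the fall of Thbs1 and Thbs2 over induction in both lines, so the change of these genes from day 0 to day 2, and how it differs between the lines, is given as a description with no test, and calls on such changes are counted over the other 8 genes.

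RNA was sequenced from 3T3-L1 cells, a preadipocyte line of Swiss albino mouse origin that stores fat after hormonal induction, in 8 libraries. Control cells, called TOM, carried Cas9 and a guide against tdTomato, a gene that mouse cells lack, and Ddx6-KO cells carried Cas9 and a guide against exon 4 of Ddx6, which encodes an RNA helicase of cytoplasmic mRNA granules (P-bodies). Each line was sampled at day 0 and again at day 2 of treatment with IBMX, dexamethasone and insulin, with 2 libraries in each of the 4 groups. The day is taken from the sample titles, since the treatment note of every sample, day 0 included, gives a harvest 2 days after induction. Both lines were transduced with lentivirus, selected with puromycin and cloned from single cells, so the effect of the Ddx6 guide and that of the clone cannot be told apart. Nothing in the labels places the 2 libraries of a group in separate cultures, and p-values measure the spread between these libraries, which may be technical.

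Matricellular proteins regulate how cells attach to, sense and remodel the matrix around them, and most of them add little to its mechanical strength. Thrombospondin 1 binds CD36, CD47 and integrins and can release TGF-beta from its latent complex, while osteopontin, periostin, tenascin C and fibronectin bind integrins. Preadipocytes lie in a fibroblastic matrix rich in fibronectin, which is taken apart as they round up and store fat.

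Levels are given in FPKM, which counts fragments per kilobase of transcript and corrects for library depth, so that levels of different genes can be set side by side. The steps between low values gave an approximate depth of 1.4 M to 18.8 M fragments (M, 1e6) per library, the highest in TOM day 0 library 1. Protein-coding genes held 46.6% and 51.1% of the summed FPKM in TOM at day 0 and 37.4% and 37.3% at day 2. In Ddx6-KO, they held 48.9% and 51.4% at day 0 and 46.3% and 56.9% at day 2. FPKM does not correct for such shifts, and their part in the differences between groups was not tested. Ddx6 RNA was at 11.3 and 19.9 FPKM in TOM at day 0 and at 27.2 and 31.9 in Ddx6-KO, and at 28.8 and 28.4 in TOM and 50.0 and 43.0 in Ddx6-KO at day 2. Gene-level RNA cannot show an insertion or deletion at the site that the guide cuts, and TOM and Ddx6-KO name the libraries by their labels. The summed level of 10 adipocyte markers was 225.9 to 250.3 FPKM in TOM at day 0 and 718.6 to 722.6 at day 2, against 51.9 to 52.6 and 30.4 to 34.4 in Ddx6-KO. Most of the day 0 difference was Lpl, at 195 and 173 FPKM in TOM and 9.94 and 12.9 in Ddx6-KO, and the other 9 markers summed to 53.4 to 55.0 and 39.7 to 42.0 there. Fabp4 made up most of the TOM sum at day 2, at 520.1 and 496 FPKM. Of the 10 markers, 8 rose and 1 fell in TOM past the threshold, and 0 rose and 1 fell in Ddx6-KO. Over all genes tested, 3.40% rose and 3.74% fell past it in TOM, and 4.80% and 5.85% in Ddx6-KO. The 8 preadipocyte markers summed to between 1474.7 and 2268.5 FPKM in every library. At day 0, 4 of them were lower in Ddx6-KO and 1 was higher, where 4.81% of all genes tested were lower and 6.55% higher. Thy1 was at 10.2 and 10.6 FPKM in TOM and at 0.33 and 0.35 in Ddx6-KO on that day. The sums reached, for 8 osteoblast, 8 macrophage and 6 endothelial markers, at most 15.9, 18.6 and 7.6. All differences and standard errors (SE) below are on the log2(FPKM + 1) scale, which understates changes of genes with low levels.

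Postn, Spp1, Tnc and Thbs2 are the genes whose changes differed most between the lines among those with a promoter in the RefSeq table (GRCm38.p6), which held 7 of the 10 genes and not Thbs1, Fn1 or Ccn4. The 250 bases before each start, read 5′ to 3′ on the strand of the gene, are printed in lower case, with matches in capitals to the TATA box (TATAAA), the CCAAT box (CCAAT) and the Sp1 motif (GGGCGG) on either strand.
Thbs2, chr17:14694263-14694512, minus strand: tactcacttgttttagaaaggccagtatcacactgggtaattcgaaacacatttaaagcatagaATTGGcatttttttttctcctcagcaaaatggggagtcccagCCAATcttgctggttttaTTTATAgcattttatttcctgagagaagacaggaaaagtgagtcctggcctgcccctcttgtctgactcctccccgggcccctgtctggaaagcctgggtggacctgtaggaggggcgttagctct
Spp1, chr5:104434861-104435110, plus strand: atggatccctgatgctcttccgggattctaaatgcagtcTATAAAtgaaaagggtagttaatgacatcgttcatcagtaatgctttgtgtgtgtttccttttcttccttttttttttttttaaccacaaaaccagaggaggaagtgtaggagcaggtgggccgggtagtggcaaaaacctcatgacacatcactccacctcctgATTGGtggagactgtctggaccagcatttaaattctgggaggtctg
Tnc, chr4:64047016-64047265, minus strand: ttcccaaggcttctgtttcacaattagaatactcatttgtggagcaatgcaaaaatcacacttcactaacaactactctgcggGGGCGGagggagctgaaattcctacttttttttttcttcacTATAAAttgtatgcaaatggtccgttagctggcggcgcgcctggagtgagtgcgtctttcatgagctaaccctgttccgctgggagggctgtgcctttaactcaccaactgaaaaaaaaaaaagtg
Postn, chr3:54360857-54361106, plus strand: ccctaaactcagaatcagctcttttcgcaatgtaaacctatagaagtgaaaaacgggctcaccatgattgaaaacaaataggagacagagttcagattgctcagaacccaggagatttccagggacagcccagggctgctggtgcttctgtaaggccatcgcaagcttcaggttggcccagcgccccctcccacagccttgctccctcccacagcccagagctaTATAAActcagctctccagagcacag
TATAAA began 26 bases before the start of Postn, 126 before that of Tnc and 211 before that of Spp1, and its reverse complement began 126 bases before the start of Thbs2. At least 1 such match was present in 12.4% of the 32851 mouse promoter windows of this length, CCAAT in 33.8% and GGGCGG in 32.7%. The motifs of AP-1 (TGANTCA, in 6.7% of windows), TEAD (GGAATG, 12.6%) and the cAMP response element (TGACGTCA, 1.5%) and a glucocorticoid receptor half-site (AGAACA, 16.1%) were also searched on both strands, and none of the 4 windows held a match. No matches of different motifs overlapped. A match here is a description of letters and not of binding.

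Thbs1 (chromosome 2, 118111876 to 118127133, plus strand, GRCm38 as for all genes here) encodes thrombospondin 1, an inhibitor of angiogenesis and an activator of latent TGF-beta. In TOM, it stood at 75.6 and 80.1 FPKM at day 0 and at 5.86 and 6.92 at day 2. In Ddx6-KO, it stood at 421 and 366 FPKM at day 0 and at 71.4 and 63.6 at day 2. Both lines were lower at day 2 with no overlap, and Ddx6-KO libraries at day 2 lay only just under TOM libraries at day 0. Mean Thbs1 was 12.2-fold higher at day 0 than at day 2 in TOM (log2 difference of day 2 minus day 0 -3.42, SE 0.145) and 5.83-fold higher in Ddx6-KO (-2.53, SE 0.145). Against TOM, Ddx6-KO was 5.06-fold higher at day 0 (log2 difference 2.32, SE 0.145, adjusted p = 0.000304) and 10.6-fold higher at day 2 (3.21, SE 0.145, adjusted p = 8e-05). The change of Thbs1 in Ddx6-KO minus that in TOM was 0.89 (SE 0.205). The lincRNA gene Gm29233 overlaps Thbs1 on the other strand, and no source used here states whether the counting used strand.

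Thbs2 (chromosome 17, 14665500 to 14694235, minus strand) encodes thrombospondin 2, which shares the trimeric structure of thrombospondin 1 but does not activate TGF-beta. In TOM, Thbs2 was at 198 and 167 FPKM at day 0 and at 19.7 and 21.6 at day 2. In Ddx6-KO, Thbs2 stood at 103 and 95.05 FPKM at day 0 and at 39.25 and 36.6 at day 2. Ddx6-KO lay below TOM at day 0 and above it at day 2, without overlap on either day, so that the order of the lines crossed over induction. Mean Thbs2 was 8.84-fold higher at day 0 than at day 2 in TOM (log2 difference of day 2 minus day 0 -3.08, SE 0.141) and 2.61-fold higher in Ddx6-KO (-1.36, SE 0.141). Ddx6-KO minus TOM gave -0.87 at day 0 (SE 0.141, adjusted p = 0.01) and 0.85 at day 2 (SE 0.141, adjusted p = 0.0082). The change of Thbs2 in Ddx6-KO minus that in TOM was 1.72 (SE 0.199), and 1.11 after protein-coding scaling. The difference at day 0 missed the threshold without the first Ddx6-KO library of that day (-0.93, adjusted p = 0.0644) or the second (-0.81, adjusted p = 0.0921), and that at day 2 without TOM day 2 library 1 (0.79, adjusted p = 0.055). After scaling to the protein-coding total, neither passed (-0.87, adjusted p = 0.119, and 0.23, adjusted p = 0.585).

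Thbs1 and Thbs2 thus stood in a different order in the lines, with Thbs2 above Thbs1 in each TOM library and Thbs1 above Thbs2 in each Ddx6-KO library. By mean level among 21518 protein-coding genes, Thbs1 ranked 325 and Thbs2 97 in TOM at day 0, and Thbs1 ranked 38 and Thbs2 225 in Ddx6-KO at day 0.

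Thbs3 (chromosome 3, 89215180 to 89226837, plus strand) encodes thrombospondin 3, a pentameric form found in cartilage and bone. It was the lowest of the 3 thrombospondins at day 0, at 13.95 and 20.9 FPKM in TOM and 23.0 and 25.9 in Ddx6-KO. At day 2, Thbs3 was at 13.85 and 9.32 FPKM in TOM and 14.9 and 9.0 in Ddx6-KO. Groups overlapped between the lines at day 2 and did not overlap between days, though the nearest TOM libraries, at 13.95 and 13.85 FPKM, lay side by side. No comparison of Thbs3 passed, with the widest gap in Ddx6-KO over induction (-1.01, 95% interval -1.72 to -0.30, adjusted p = 0.0804). That gap passed after TPM rescaling (-1.45, adjusted p = 0.0209), median-ratio scaling (adjusted p = 0.0478) and protein-coding scaling (adjusted p = 0.0372). Mtx1, a protein-coding gene, overlaps Thbs3 on the other strand.

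**Figure D1:**
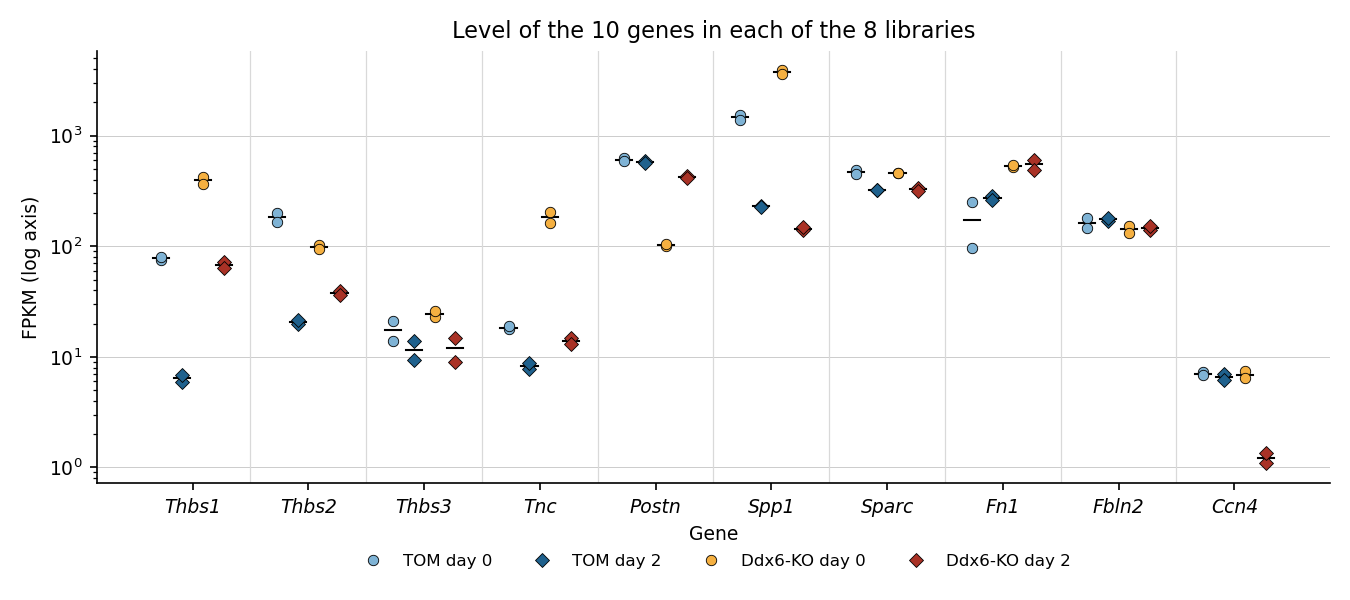
Level of each of the 10 genes in FPKM (log axis) in the 8 libraries, with a point per library, a black bar at the group mean, circles for day 0 and diamonds for day 2, and blue for TOM and orange or red for Ddx6-KO. Thbs1, Tnc and Spp1 stand highest in Ddx6-KO at day 0 and Postn lowest there, while Ccn4 drops only in Ddx6-KO at day 2.

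Tnc (chromosome 4, 63959785 to 64047015, minus strand) encodes tenascin C, a many-armed glycoprotein of wounds and developing tissue. Tnc was at 17.8 and 18.9 FPKM in TOM at day 0 and at 7.70 and 8.74 at day 2. Ddx6-KO libraries had Tnc at 204 and 163 FPKM at day 0 and at 14.8 and 13.03 at day 2. Ddx6-KO at day 0 stood far above the other 6 libraries, and at day 2 it lay between the TOM libraries of the same day and those of day 0. Tnc was 10.0-fold higher in Ddx6-KO than in TOM at day 0 (log2 difference 3.25, SE 0.166, adjusted p = 0.000124) and 1.69-fold higher at day 2 (0.70, SE 0.166, adjusted p = 0.0277). It fell in both lines, 2.23-fold in TOM (-1.07, SE 0.166, adjusted p = 0.00891) and 13.2-fold in Ddx6-KO (-3.62, SE 0.166, adjusted p = 6.5e-05), and the changes differed (-2.55, SE 0.234, adjusted p = 0.00203). The difference at day 2 missed the threshold with no filter, with no variance trend and after each of the 3 scalings (0.12 to 0.69, adjusted p = 0.051 to 0.808) and without either TOM library of day 2 (adjusted p = 0.125 for library 1 and 0.0739 for library 2) or Ddx6-KO day 2 library 1 (0.108). The fall in TOM missed it without TOM day 2 library 1 (-0.99, adjusted p = 0.0696) and after protein-coding scaling (-0.93, adjusted p = 0.119). The gene 8030451A03Rik overlaps Tnc on the other strand.

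Postn (chromosome 3, 54361109 to 54391037, plus strand) encodes periostin, which binds collagen, tenascin C and integrins. Postn was at 624 and 591 FPKM in TOM at day 0 and at 592 and 569.8 at day 2. In Ddx6-KO, it was at 101 and 104 FPKM at day 0 and at 434 and 412 at day 2. TOM libraries of both days overlapped, and Ddx6-KO at day 0 lay far below the rest. Postn was 5.94-fold higher in TOM than in Ddx6-KO at day 0 (log2 difference of Ddx6-KO minus TOM -2.56, SE 0.118, adjusted p = 0.00011). It rose in Ddx6-KO over induction (2.04, SE 0.118, adjusted p = 0.000136), while TOM gave -0.07 (95% interval -0.34 to 0.21, adjusted p = 0.834). The changes differed by 2.1 (SE 0.167, adjusted p = 0.00124), and by 1.47 after protein-coding scaling, where the threshold was missed (adjusted p = 0.0719). At day 2, Ddx6-KO was lower by a smaller margin (-0.46, SE 0.118, adjusted p = 0.0358), and this missed the threshold without any 1 library of Ddx6-KO or of TOM at day 2 (-0.49 to -0.42, adjusted p = 0.0771 to 0.156) and with no filter (adjusted p = 0.0759) or no variance trend (0.108). After protein-coding scaling it was -1.09 (adjusted p = 0.0218). Postn was the only member with a called rise over induction in either line.

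Spp1 (chromosome 5, 104435118 to 104441050, plus strand) encodes osteopontin, an integrin-binding phosphoprotein of bone that is also secreted as a cytokine. Spp1 was at 1544 and 1386 FPKM in TOM at day 0 and at 229 and 228 at day 2. In Ddx6-KO, it was at 3891 and 3639.8 FPKM at day 0 and at 139 and 149.7 at day 2. Its mean ranked 8 among protein-coding genes in TOM at day 0 and 4 in Ddx6-KO, the highest level of the 10 genes on that day in each line, and the lines changed order by day 2 without overlap. Spp1 fell 6.40-fold in TOM (-2.67, SE 0.13, adjusted p = 0.000117) and 26.1-fold in Ddx6-KO (-4.69, SE 0.13, adjusted p = 2.4e-05), and the changes differed (-2.02, SE 0.184, adjusted p = 0.00203). Ddx6-KO was higher at day 0 (1.36, SE 0.13, adjusted p = 0.00132) and lower at day 2 (-0.66, SE 0.13, adjusted p = 0.015). The call at day 2 was lost without Ddx6-KO day 2 library 1 (-0.61, adjusted p = 0.0778) and without either TOM library of that day (-0.66 in both fits, adjusted p = 0.086 for library 1 and 0.0802 for library 2), and protein-coding scaling gave -1.29, also past the threshold. Macrophages and osteoblasts also make osteopontin. The 8 macrophage markers summed to 14.5 to 18.6 FPKM in Ddx6-KO at day 0 against 7.9 to 11.1 in TOM, and 9.7 to 12.0 against 5.8 to 10.5 at day 2, with 4 of 8 under 1 FPKM in all libraries and Cd14 called higher in Ddx6-KO at day 0 (1.28, SE 0.268, adjusted p = 0.0248). The 8 osteoblast markers summed to 10.4 to 10.6 FPKM in Ddx6-KO at day 0 against 6.3 to 15.9 in TOM, and 7.6 to 9.8 against 4.4 to 5.0 at day 2, with Bglap and Bglap2 listed at 0 throughout. The part of such cells in the Spp1 level was not tested. A further gene model, Gm42793, overlaps Spp1 on the same strand, and reads of the pair cannot be told apart.

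Sparc (chromosome 11, 55394500 to 55423183, minus strand) encodes a collagen-binding protein that limits adipogenesis in mice. Sparc was at 489 and 449 FPKM in TOM at day 0 and at 321 and 319 at day 2. Ddx6-KO libraries had Sparc at 461 and 462 FPKM at day 0 and at 335 and 318 at day 2. The days did not overlap in either line, and the lines overlapped on each day. The log2 difference of day 2 minus day 0 was -0.55 in TOM (SE 0.12, adjusted p = 0.0368) and -0.50 in Ddx6-KO (SE 0.12, adjusted p = 0.0415), so Sparc fell in both lines. These calls were lost in TOM without any 1 library but TOM day 0 library 2 (-0.55 to -0.49, adjusted p = 0.0573 to 0.179) and in Ddx6-KO without any 1 library of TOM at day 2 or of Ddx6-KO (-0.54 to -0.46, adjusted p = 0.0788 to 0.206), and in each line with no filter, with no variance trend and after median-ratio or protein-coding scaling (adjusted p up to 0.525 and 0.124). The value in Ddx6-KO was -0.93 after TPM rescaling (adjusted p = 0.0107) and -0.96 after protein-coding scaling. Ddx6-KO minus TOM was -0.02 at day 0 (95% interval -0.30 to 0.26) and 0.03 at day 2 (-0.25 to 0.31).

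**Figure D2:**
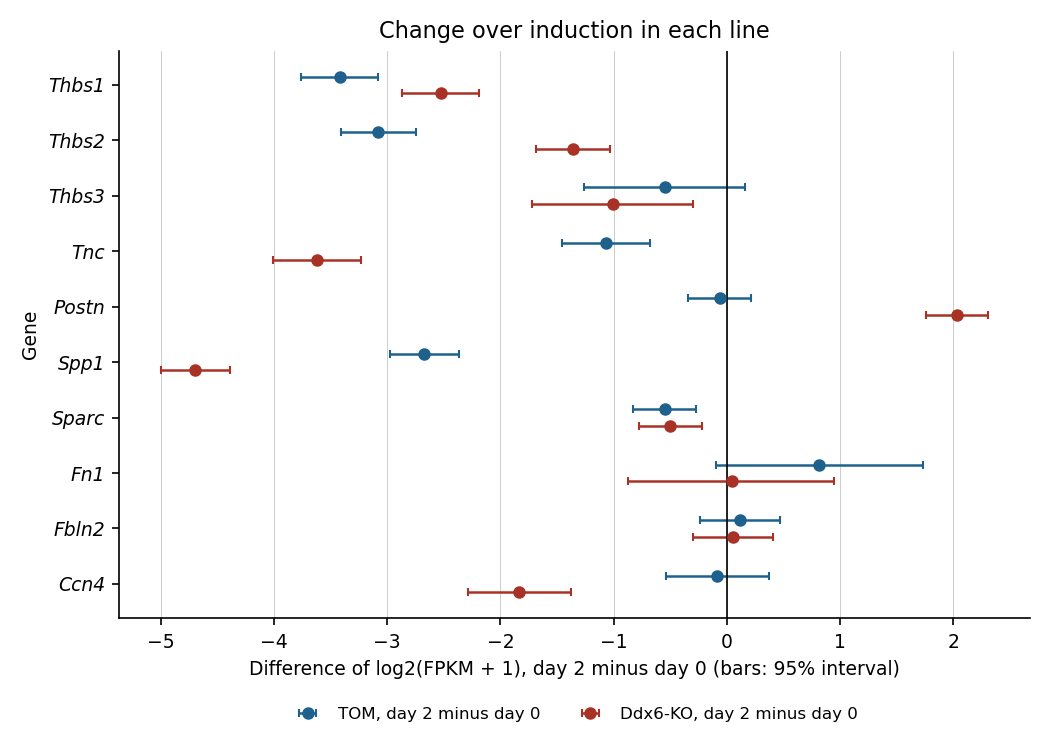
Change of each gene from day 0 to day 2 as a difference of log2(FPKM + 1), in TOM (blue) and Ddx6-KO (red), with bars for the 95% interval. Tnc and Spp1 have the larger drop in Ddx6-KO and Thbs2 the smaller, and Postn lies at -0.07 in TOM and 2.04 in Ddx6-KO.

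Fn1 (chromosome 1, 71585520 to 71653200, minus strand) encodes fibronectin, whose fibrils carry many other matrix proteins. Fn1 was at 95.8 and 252 FPKM in TOM at day 0 and at 285 and 265 at day 2. In Ddx6-KO, it was at 517 and 543 FPKM at day 0 and at 607 and 490.5 at day 2. Ddx6-KO libraries all lay above TOM libraries, and the TOM libraries of day 0 differed more from each other than they did for any other member. In that pair, the difference of library 2 minus library 1 had a Spearman correlation of 0.38 with transcript length over 7043 genes, against -0.1 to 0.06 in the other pairs, and the longest Fn1 transcript, at 8315 bases, was the longest of the 10 genes, while Tnc, the next longest, differed little in that pair. Apol7d, an antisense gene, overlaps Fn1. The part of this length trend in the Fn1 values was not tested. Ddx6-KO was 3.05-fold higher at day 0 (1.76, SE 0.389, adjusted p = 0.0294), and 0.99 higher on the log2 scale at day 2 (95% interval 0.07 to 1.90, adjusted p = 0.121). Without TOM day 0 library 1, the day 0 difference was 1.07 (adjusted p = 0.027), and without TOM day 0 library 2 it was 2.46 (adjusted p = 0.00332). The call at day 0 was lost without TOM day 2 library 1 or library 2, or without Ddx6-KO day 0 library 1 or library 2 (1.73 to 1.80, adjusted p = 0.0521 to 0.15), and with no filter (0.0743) or no variance trend (0.0538). Fn1 passed at day 2 without either TOM day 0 library (adjusted p = 0.00741 in both fits). The change in TOM, 0.82 (95% interval -0.10 to 1.73, adjusted p = 0.301), was 0.12 without TOM day 0 library 1 (adjusted p = 0.776) and 1.51 without TOM day 0 library 2 (adjusted p = 0.007). The difference of the changes, -0.78 (adjusted p = 0.512), was -0.08 without the former (adjusted p = 0.888) and -1.47 without the latter (adjusted p = 0.0292). In Ddx6-KO, the change was 0.04 (95% interval -0.87 to 0.95).

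Fbln2 (chromosome 6, 91212455 to 91272540, plus strand) encodes fibulin 2, which links fibronectin, fibrillin and elastic fibres. Fbln2 was at 180.3 and 146 FPKM in TOM at day 0 and at 169 and 181.5 at day 2. Ddx6-KO libraries had Fbln2 at 152 and 132 FPKM at day 0 and at 141 and 153 at day 2. Fbln2 had a level profile, with all 8 libraries between 132 and 181.5 FPKM and no comparison past the threshold. The 95% intervals were -0.24 to 0.47 for the change in TOM, -0.30 to 0.41 for that in Ddx6-KO, -0.55 to 0.16 for Ddx6-KO minus TOM at day 0 and -0.61 to 0.10 at day 2.

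Ccn4 (chromosome 15, 66891320 to 66923201, plus strand) encodes a CCN-family protein induced by Wnt signalling. Ccn4 was at 7.22 and 6.84 FPKM in TOM at day 0, at 7.02 and 6.12 at day 2, and at 7.41 and 6.42 in Ddx6-KO at day 0. In Ddx6-KO at day 2, it was at 1.09 and 1.34 FPKM. The first 3 groups overlapped, and the last lay below all other libraries. Ccn4 fell 5.69-fold in Ddx6-KO over induction (-1.84, SE 0.195, adjusted p = 0.00174), and TOM gave -0.09 (95% interval -0.54 to 0.37, adjusted p = 0.869). Ddx6-KO was lower at day 2 (-1.77, SE 0.195, adjusted p = 0.00181), and the changes differed by -1.75 (SE 0.276, adjusted p = 0.0163). The sizes depend on the pseudocount at this level, and the change in Ddx6-KO was -2.42 at a pseudocount of 0.1 and -0.94 at 5, the difference at day 2 -2.35 and -0.90, and the difference of the changes -2.32 and -0.88, all past the threshold. The call on the difference of the changes was lost without any 1 library of TOM or of Ddx6-KO at day 0 (-1.84 to -1.66, adjusted p = 0.0531 to 0.0905). The level in Ddx6-KO day 2 library 1 rests on about 8 fragments.

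Over induction in TOM, 0 of the 8 other genes were higher and 3 lower (Sparc, Spp1 and Tnc), where 3.40% of the 15811 genes tested were higher and 3.74% lower. In Ddx6-KO, 1 was higher (Postn) and 4 were lower (Sparc, Spp1, Tnc and Ccn4), where 4.80% of all genes were higher and 5.85% lower. The median log2 difference of the 8 genes was -0.32 in TOM and -0.75 in Ddx6-KO, beside 0.03 and 0.09 over all genes tested. At day 0, 4 of the 10 genes were higher in Ddx6-KO than in TOM (Thbs1, Spp1, Tnc and Fn1) and 2 lower (Thbs2 and Postn), where 6.55% of all genes were higher and 4.81% lower. At day 2, 3 were higher (Thbs1, Thbs2 and Tnc) and 3 lower (Spp1, Postn and Ccn4), where 10.4% were higher and 8.58% lower. Among the 8 genes other than Thbs1 and Thbs2, the difference of the changes was positive and past the threshold for 1 (Postn) and negative for 3 (Spp1, Tnc and Ccn4), where 2.02% of all genes were called positive and 2.17% negative. The median log2 difference was 0.23 over the 10 genes at day 0, 0.03 at day 2 and -0.62 over the 8 genes for the difference of the changes, beside 0.05, 0.11 and 0.04 over all genes. In these bulk libraries, fewer cells of a type and less RNA per cell cannot be told apart, and the part of the adipocyte marker level, which moved with line and day, in these differences was not tested. Comparisons of the same group share its libraries. The 10 genes were chosen with earlier results of these data known, so counts beside the shares of all genes are a description and not a test of the set. In all, the split of calls over all genes depended on the scaling, and scaling to the protein-coding total turned 1638 higher and 1357 lower at day 2 into 526 and 3006.

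**Figure D3:**
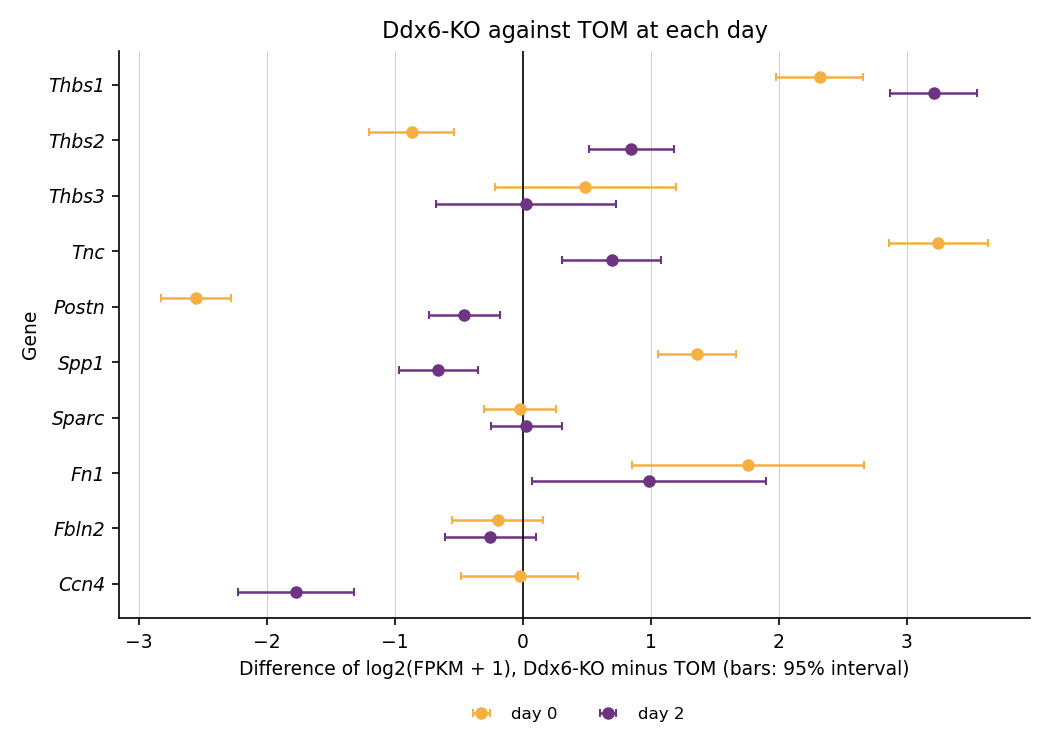
Ddx6-KO minus TOM for each gene as a difference of log2(FPKM + 1), at day 0 (orange) and day 2 (purple), with bars for the 95% interval. Thbs1 lies above 0 on both days, Thbs2 and Spp1 lie on opposite sides of 0 on the 2 days, and Ccn4 moves from -0.02 to -1.77.

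Of 27 related matricellular genes (other thrombospondin, CCN, SPARC, tenascin, fibulin and bone phosphoprotein genes), 13 passed the filter on low values. Over all genes tested, 3.40% rose and 3.74% fell in TOM, and 4.80% and 5.85% in Ddx6-KO. At day 0, 6.55% of all genes were higher in Ddx6-KO and 4.81% lower, and at day 2 10.4% and 8.58%. In TOM, 4 of the 13 rose and 1 fell over induction, and in Ddx6-KO 2 rose and 2 fell, with medians of -0.48 and -0.02. Against TOM, 4 were higher and 4 lower in Ddx6-KO at day 0 (median -0.16), and 3 higher and 6 lower at day 2 (median -0.22). With the replicate block by label number, fewer of the 13 were called in each of these comparisons. That block rests Ddx6-KO at day 0 on library 1. Leaving out 1 library gave 1 to 2 in each direction in Ddx6-KO over induction. The 4 rises in TOM were 2 without either TOM day 2 library, the 4 higher and 4 lower at day 0 were 2 and 2 without either Ddx6-KO day 0 library, and the 6 lower at day 2 were 3 without either TOM day 2 library. Ccn1, a CCN-family target of YAP, was at 6.18 and 5.37 FPKM in TOM at day 0 and 62.9 and 58.5 in Ddx6-KO, and at 2.84 and 5.13 against 50.9 and 46.1 at day 2. The lines did not overlap on either day, and Ccn1 was higher in Ddx6-KO at day 0 (3.19, SE 0.231, adjusted p = 0.000473) and at day 2 (3.35, SE 0.231, adjusted p = 0.000345).
Ccn2, connective tissue growth factor and a further YAP target, was at 0.72 and 0.79 FPKM in TOM at day 0, was listed at 0 in both TOM libraries at day 2, and was at 3.90 and 3.69 FPKM and at 17.4 and 15.4 in Ddx6-KO. It rose in Ddx6-KO over induction (1.86, SE 0.215, adjusted p = 0.00249), opposite to the fall of Ccn4 in the same libraries. Efemp2, or fibulin 4, which helps to crosslink elastin, was at 69.0 and 68.5 FPKM in TOM at day 0 and at 141 and 127 at day 2. In Ddx6-KO, Efemp2 was at 43.3 and 43.1 FPKM at day 0 and at 31.2 and 28.7 at day 2, so that it rose in TOM (0.95, SE 0.125, adjusted p = 0.00454), fell in Ddx6-KO (-0.52, SE 0.125, adjusted p = 0.043) and differed in its change (-1.47, SE 0.177, adjusted p = 0.00613).

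Of 22 receptors and binding partners of these proteins, 17 passed the filter. Over all genes tested, 3.40% rose and 3.74% fell in TOM, and 4.80% and 5.85% in Ddx6-KO. At day 0, 6.55% of all genes were higher in Ddx6-KO and 4.81% lower, and at day 2 10.4% and 8.58%. In TOM, 2 of the 17 rose and 1 fell over induction (median 0.09), and in Ddx6-KO 0 rose and 7 fell (median -0.44). Ddx6-KO had 5 higher and 0 lower at day 0 (median 0.42), and 2 higher and 4 lower at day 2 (median 0.19). The replicate block by label number rests Ddx6-KO at day 0 on library 1, since library 2 is alone in its block. With the replicate block by label number, 0 were called at day 0, and 1 fell in Ddx6-KO in place of 7. The count higher at day 0 went to 0 when a day 0 library was left out, be it library 1 of TOM or any from Ddx6-KO, and to 2 after protein-coding scaling. The 7 that fell in Ddx6-KO became 2 when a day 0 library of that line was left out, and 4 when a day 2 library of either line was. Leaving out 1 library gave 0 to 3 rises in TOM, and 1 to 3 higher and 2 to 4 lower at day 2. Sdc4, or syndecan 4, a fibronectin coreceptor, was at 77.1 and 73.3 FPKM in TOM at day 0 and at 138 in each library at day 2, against 81.15 and 86.3 and then 43.6 and 53.5 in Ddx6-KO. It rose in TOM (0.87, SE 0.138, adjusted p = 0.0103) and fell in Ddx6-KO (-0.78, SE 0.138, adjusted p = 0.0141), and the changes differed (-1.65, SE 0.196, adjusted p = 0.00578). Itgb5, the integrin beta 5 chain that pairs with the alpha V chain in a receptor for vitronectin and periostin, fell in Ddx6-KO (-1.76, SE 0.184, adjusted p = 0.0016) from 40.85 and 29.4 FPKM to 9.39 and 9.66. Sdc3, or syndecan 3, fell in the same libraries from 33.1 and 23.6 FPKM to 5.76 and 5.64 (-2.11, SE 0.278, adjusted p = 0.00424).

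Of 14 genes of elastic fibres and latent TGF-beta, 12 passed the filter. Over all genes tested, 3.40% rose and 3.74% fell in TOM, and 4.80% and 5.85% in Ddx6-KO. At day 0, 6.55% of all genes were higher in Ddx6-KO and 4.81% lower, and at day 2 10.4% and 8.58%. Over induction, 0 of the 12 rose and 2 fell in each line, with medians of -0.19 in TOM and -0.39 in Ddx6-KO. Ddx6-KO had 1 higher and 1 lower at day 0 (median -0.16), and 2 higher and 3 lower at day 2 (median -0.45). With the replicate block by label number, which rests Ddx6-KO at day 0 on library 1, fewer were called in each of these comparisons. Leaving out 1 library gave 1 to 2 lower in each line over induction, 1 higher and 0 to 1 lower at day 0, and 1 to 2 higher and 1 to 3 lower at day 2. Lox, or lysyl oxidase, which crosslinks collagen and elastin, was at 138 and 146 FPKM in TOM at day 0 and at 69.0 and 68.8 at day 2, against 471 and 515 and then 422 and 382 in Ddx6-KO. Lox was higher in Ddx6-KO on both days, by 1.79 at day 0 (SE 0.123, adjusted p = 0.000379) and 2.52 at day 2 (SE 0.123, adjusted p = 0.000104). Fbn1, or fibrillin 1, the main microfibril protein, fell in Ddx6-KO (-2.62, SE 0.164, adjusted p = 0.000183) from 42.7 and 45.5 FPKM to 7.36 and 5.44, while TOM libraries ran from 34.7 and 36.6 to 27.1 and 26.8. Tgfb3, a TGF-beta ligand, fell in TOM (-1.43, SE 0.227, adjusted p = 0.01) from 9.0 and 7.39 FPKM to 2.02 and 2.85.

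**Figure D4:**
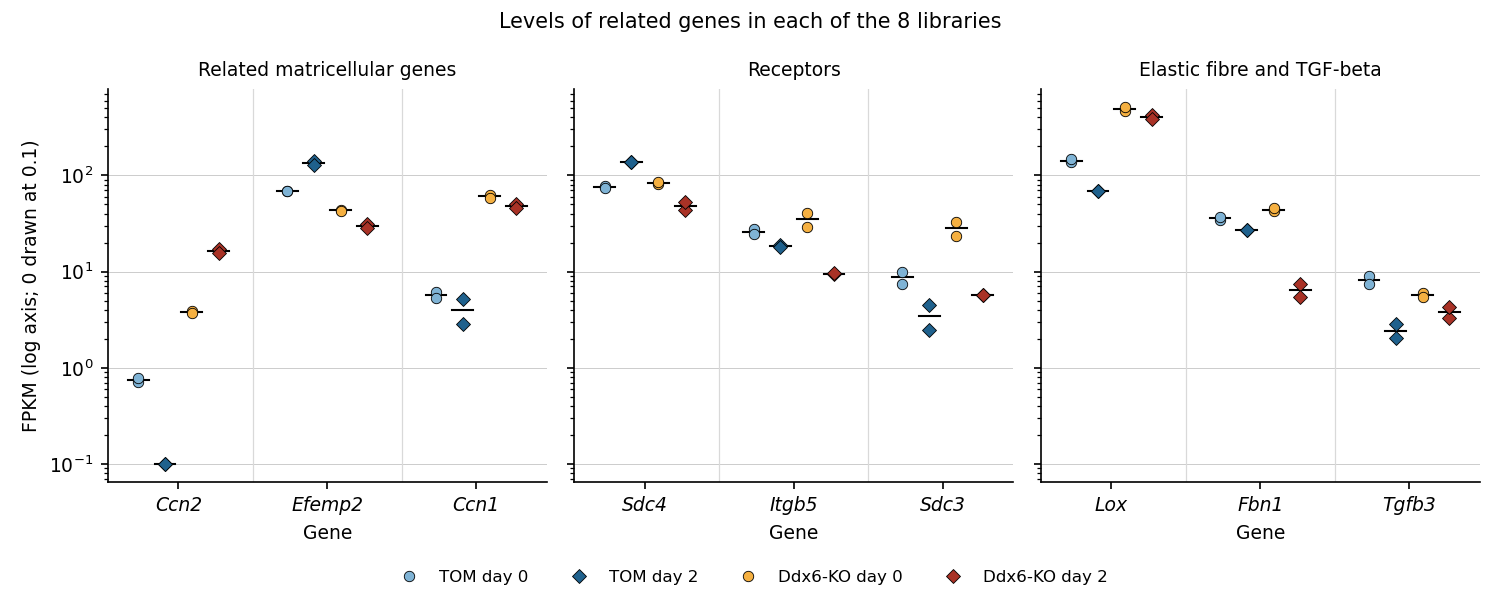
Levels in FPKM (log axis, with values of 0 drawn at 0.1) of the 3 genes with the smallest p in each of 3 lists of related genes, with a point per library and a black bar at the group mean. Ccn1, Ccn2 and Lox are higher in Ddx6-KO than in TOM on both days, and Efemp2 and Sdc4 rise in TOM and fall in Ddx6-KO.

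Among 7157 named genes with a mean of at least 5 FPKM, the pattern of Thbs1 over the 8 libraries was most like that of Col8a1 (Pearson r = 0.996), Lgmn (0.988), Edem1 (0.986) and Cp (0.985). Col8a1, a collagen VIII chain, was at 7.20 and 6.90 FPKM in TOM at day 0, 0.99 and 0.82 at day 2, and 18.0 and 17.1 and then 5.56 and 6.20 in Ddx6-KO, so that its groups stood in the order of the Thbs1 groups. The pattern of Thbs2 was most like that of Trim30a (0.991), H2-T10 (0.990), Ifi30 (0.986) and H2-K1 (0.986), of which H2-T10 and H2-K1 are MHC class I genes and Ifi30 is a lysosomal thiol reductase of antigen processing. H2-K1 was at 195 and 151 FPKM in TOM at day 0 and at 43.2 and 41.6 at day 2, and at 119.8 and 101 and then 52.3 and 49.5 in Ddx6-KO. These correlations describe 8 libraries that fall into 4 groups, and libraries of a group share their line and day.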

How the data were processed

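The authors deposited gene-level FPKM from Cufflinks 2.2.1, with reads aligned by TopHat2 2.1.0 to GRCm38/mm10 per the labels. Libraries were TruSeq Stranded Total RNA. GENCODE M21 named 45139 of 46073 gene identifiers and gave coordinates, and 934 had no match. Libraries are numbered by the deposited columns, since label numbers match only some of them. The 15811 genes that reached 1 FPKM in 2 or more libraries were taken to log2(FPKM + 1) and fitted with limma 3.58.1 in R 4.3.3, 1 mean per group with a variance trend, and p-values were adjusted by Benjamini-Hochberg within each of 5 comparisons with a threshold of 0.05. Every adjusted p is from limma. The fit was tested on simulated data. Related genes were named by a rule, up to 3 per list with the smallest p, and the 4 genes most like Thbs1 and Thbs2 by correlation. The members and lists were chosen with earlier results of these data known. Alternatives changed the pseudocount, the filter, the scaling, the trend, the replicate block and the libraries, and the block by column number was added after seeing the data. Read counts were not used here, and depth is approximate. Figures used matplotlib 3.10.9.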

Additional observations from a re-analysis of the deposited data

Results flagged for a closer look

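The change from day 0 to day 2 differed between the lines for 4 of the 8 genes other than Thbs1 and Thbs2 by a test of the difference itself, an interaction in limma. Ddx6-KO change minus TOM change was 2.1 for Postn on the log2 scale (adjusted p = 0.00124), which rose in Ddx6-KO and gave -0.07 in TOM. It was -2.02 for Spp1 (adjusted p = 0.00203) and -2.55 for Tnc (adjusted p = 0.00203), which fell in both lines and more in Ddx6-KO from a higher start. It was -1.75 for Ccn4 (adjusted p = 0.0163), where about 8 fragments stand behind Ddx6-KO day 2 library 1. For Thbs2 it was 1.72, given as a description, since the choice of the genes names its fall in both lines. With the replicate block by label number, all 4 genes missed the threshold (2.16 for Postn, -2.06 for Spp1, -2.73 for Tnc and -1.83 for Ccn4). In that fit, Ddx6-KO day 0 library 2 is alone in its block, so Ddx6-KO at day 0 rests on library 1. Postn also missed the threshold after protein-coding scaling (1.47, adjusted p = 0.0719). Groups of 2 libraries were too small to look for single libraries that stand apart.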

How the results depend on the processing

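Protein-coding scaling lowered the members called from 3 to 1 in TOM over induction, counted without Thbs1 and Thbs2. For the difference of changes among the other 8 genes, it lost Postn and kept Spp1, Tnc and Ccn4. Leaving out 1 library at a time gave 1 to 4 calls in TOM and 4 to 5 in Ddx6-KO over the other 8 genes. Over all 10 genes, it gave 4 to 6 calls at day 0 and 2 to 7 at day 2. For the difference among the other 8 genes, Postn, Spp1 and Tnc stayed called. Ccn4 lost that call without any 1 TOM library of either day or any 1 Ddx6-KO library of day 0 (-1.84 to -1.66). Without TOM day 2 library 1, 1 call was left in TOM and 2 at day 2. A library left alone in its group was assumed to vary like the other groups. Label numbers 1 and 3 are shared between groups, while Ddx6-KO day 0 library 2 alone has number 2. The block by label number thus rests Ddx6-KO at day 0 on library 1, and its lost calls cannot be told apart from the loss of that library. Where a column number was in no label of its group, the label number left over was used. Library deviations of same-numbered columns correlated from -0.32 to 0.13. In both TOM groups and in Ddx6-KO at day 2, libraries 1 and 2 hold label numbers 1 and 3. Between these groups the correlations were -0.07 (TOM day 0 and day 2), -0.32 (TOM day 0 and Ddx6-KO day 2) and 0.03 (TOM day 2 and Ddx6-KO day 2). Whether libraries of the same label number come from the same culture was not tested. With the replicate block by label number, calls were 1 in TOM, 3 in Ddx6-KO, 3 at day 0, 2 at day 2 and 0 for the difference, where all genes gave 6 positive and 10 negative in place of 320 and 343. With the block by column number, calls were 2 in TOM, 4 in Ddx6-KO, 6 at day 0 and 5 at day 2. For the difference, Postn, Spp1, Tnc and Ccn4 stayed called. The block by label number lost the Sparc calls in TOM (adjusted p = 0.183) and Ddx6-KO (0.364), Tnc in TOM (0.0585) and Ccn4 in Ddx6-KO (0.0822). At day 0, it lost Thbs2 (adjusted p = 0.207), Spp1 (0.0986) and Fn1 (0.245). At day 2, it lost Thbs2 (adjusted p = 0.0535), Spp1 (0.0822), Tnc (0.0832) and Postn (0.13). The block by column number lost Sparc in TOM (0.0664) and Ddx6-KO (0.0681), and Postn at day 2 (0.058). Directions turned only for differences that had missed the threshold. TPM rescaling gave -0.11 (Fbln2 in TOM), -0.39 (Fn1) and -0.38 (Fbln2) in Ddx6-KO, 0.01 at day 0 (Sparc and Ccn4), -0.14 (Thbs3) and -0.15 (Sparc) at day 2, and -0.16 (Sparc, difference of changes). Median-ratio scaling gave -0.08 (Fn1) and -0.07 (Fbln2) in Ddx6-KO, -0.12 (Thbs3) and -0.13 (Sparc) at day 2 and -0.01 (Sparc, difference). Protein-coding scaling gave 0.10 (Postn) and 0.06 (Ccn4) in TOM, -0.43 (Fn1) and -0.41 (Fbln2) in Ddx6-KO, -0.55 (Thbs3) and -0.61 (Sparc) at day 2 and -0.58 (Sparc, difference). The block by label number gave -0.09 (Fn1) and -0.03 (Fbln2) in Ddx6-KO and 0.05 (Ccn4) at day 0. Leaving out 1 library gave ranges across 0 for Sparc (-0.08 to 0.04 at day 0, -0.01 to 0.07 at day 2, -0.01 to 0.11 for the difference), Ccn4 (-0.11 to 0.07 at day 0), Thbs3 (-0.31 to 0.36 at day 2), Fn1 (-0.11 to 0.19 in Ddx6-KO) and Fbln2 (-0.04 to 0.26 in TOM, -0.04 to 0.15 in Ddx6-KO, -0.21 to 0.09 for the difference). The median of all genes moved with scaling, to -0.14, -0.27 and -0.13 in TOM, Ddx6-KO and the difference after TPM rescaling, and to 0.15, -0.26, -0.34 (day 2) and -0.43 (difference) after protein-coding scaling. In Ddx6-KO over induction, calls over all genes split into 759 higher and 925 lower in the main setting, 372 and 2112 with TPM, 547 and 1027 with median-ratio and 223 and 1350 with protein-coding scaling. In TOM they split into 538 and 592, and 315 and 793 with TPM and 399 and 315 with protein-coding scaling, at day 2 into 1062 and 1585 with TPM and 1229 and 1599 with median-ratio scaling, and for the difference of changes into 193 and 366 after TPM rescaling and 104 and 481 after protein-coding scaling. The causes were not tested. Depth limits Ccn4 most, with about 8 fragments in its lowest library against 78 for Thbs1 and 82 for Thbs3, and 2 libraries a group limit every comparison.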
